A study of Mus musculus with 96 samples.

Results

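The Kcn symbols name the potassium channel gene family, and 86 genes of it were measured among the 18666 genes with 1 symbol in the data. Members were all transcript clusters (the unit of these arrays, in which the probes of a transcript are summed to 1 value) that carry 1 gene symbol starting with Kcn, with the cluster of the highest mean kept where a gene has more than 1, in both array formats. The 86 genes had 87 such clusters, of 28310 in the data, and only Kcnh8 had a second.

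The RNA was that of 16 male mice aged 14 weeks. The inbred strain C57BL/6J supplied 8 of them, and the other 8 were NOD/ShiLtJ, in which autoimmune diabetes arises spontaneously. In each strain 4 mice received a single intraperitoneal dose of 4 mg/kg clozapine, an atypical antipsychotic, and 4 received the saline vehicle, and all were killed 3 h later. The brain of each mouse gave 3 samples, the forebrain and the hindbrain of 1 hemisphere and the other hemisphere left intact, called whole brain, and the cerebellum was removed from all of them. Each of the 48 samples was hybridized to an Affymetrix mouse gene 1.1ST array (a peg format) and a 1.0ST array (a cartridge format). Values are log2 intensities, so a difference of 1 is a doubling, and they compare samples for 1 gene and not genes with each other. These are bulk tissues, in which fewer cells of a type and less RNA per cell cannot be told apart.

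Potassium channels set the resting potential of a cell and end its action potentials by letting potassium out. The voltage-gated Kv genes Kcna, Kcnb, Kcnc, Kcnd, Kcnq and Kcnh encode pore subunits that open on depolarization, whereas Kcnf, Kcng, Kcns and Kcnv encode silent subunits, which form no channel alone and modify channels of the Kcnb subunits. Most Slo channels and the Kcnn channels respond to calcium or sodium inside the cell. The inward rectifiers (Kcnj) and the leak channels with a tandem pore domain (Kcnk) act near the resting potential. The Kcnab, Kcne, Kcnip and Kcnmb proteins are accessory subunits. By these roles the members comprised 8 Kcna, 1 Kcnb, 3 Kcnc, 3 Kcnd, 3 Kcnq and 7 Kcnh genes, 9 silent subunits, 4 Slo channels, 4 Kcnn, 15 Kcnj and 14 Kcnk genes, 14 accessory subunits, and Kcnrg, a soluble protein thought to limit the assembly of Kv channels. The mean level over the 48 arrays of the 1.1ST format was above 5 for 75 members and below 5 for the other 11, which lie near the low end of the scale.

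Promoters were available for 66 of the 86 members, as 91 windows of 300 bases (250 before and 50 after a transcription start) from RefSeq on GRCm38.p6. The windows of 4 members on which the results below turn are printed here: Kcnj4, at chr15:79505192-79505491 on the minus strand and lower in hindbrain; Kcnf1, at chr12:17176839-17177138 on the minus strand and lower in hindbrain and in NOD/ShiLtJ; Kcng4, at chr8:119635631-119635930 on the minus strand and higher in hindbrain; and Kcnj10, at chr1:172340960-172341259 on the plus strand and higher in hindbrain and in NOD/ShiLtJ. Capitals mark matches on either strand to the Sp1 GC box GGGCGG, the only one of 4 motifs searched that was found in them, in Kcnj4 and Kcnj10.
Kcnj4: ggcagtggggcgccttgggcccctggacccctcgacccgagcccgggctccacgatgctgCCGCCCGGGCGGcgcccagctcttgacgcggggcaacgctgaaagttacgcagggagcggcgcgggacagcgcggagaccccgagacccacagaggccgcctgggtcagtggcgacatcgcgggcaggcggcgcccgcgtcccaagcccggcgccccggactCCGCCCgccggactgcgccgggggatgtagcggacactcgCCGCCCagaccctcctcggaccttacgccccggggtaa
Kcnf1: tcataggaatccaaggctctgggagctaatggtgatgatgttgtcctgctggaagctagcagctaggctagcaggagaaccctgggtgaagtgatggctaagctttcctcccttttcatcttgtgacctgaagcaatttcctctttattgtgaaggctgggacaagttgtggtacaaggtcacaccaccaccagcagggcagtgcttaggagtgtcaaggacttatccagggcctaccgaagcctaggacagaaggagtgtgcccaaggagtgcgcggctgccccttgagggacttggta
Kcng4: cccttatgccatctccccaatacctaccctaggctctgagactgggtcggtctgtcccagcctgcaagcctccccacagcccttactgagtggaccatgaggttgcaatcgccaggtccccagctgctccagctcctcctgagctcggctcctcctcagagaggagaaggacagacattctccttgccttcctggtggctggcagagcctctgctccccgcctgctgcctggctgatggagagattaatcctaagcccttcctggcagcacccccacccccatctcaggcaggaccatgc
Kcnj10: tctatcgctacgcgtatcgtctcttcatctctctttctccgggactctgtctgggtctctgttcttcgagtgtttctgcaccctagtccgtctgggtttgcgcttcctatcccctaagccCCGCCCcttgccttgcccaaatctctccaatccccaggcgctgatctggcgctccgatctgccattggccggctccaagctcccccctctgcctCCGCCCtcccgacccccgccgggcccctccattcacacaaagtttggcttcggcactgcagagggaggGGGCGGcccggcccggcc

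The window of Kcnj4 was 76% G and C with 41 CpG, and that of Kcnj10 was 63.7% with 21 CpG, whereas that of Kcng4 was 61.3% with 4 CpG and that of Kcnf1 was 53% with 3 CpG. The GC box occurred in 43 of the 91 member windows (47.3%) and in 35.7% of the 32851 windows of the RefSeq table. Among windows of members called lower in hindbrain than in forebrain it was in 22 of 40 (55%), and among those called higher in 16 of 37 (43.2%). The TATA box TATAAA was in 5 of the 91 member windows (5.49%, against 13.6% of all), the E box CAGATG in 19 (20.9%, against 17.2%), and the cAMP response element TGACGTCA in 0 (against 1.79%). Median GC content was 62.3% in the windows of members lower in hindbrain, 57% in those of members higher, 58% over all member windows and 52.7% over the table. None of the 4 motifs contains another, several windows belong to 1 gene, and these shares are descriptions.

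Marker genes were examined first, because several arrays stood apart from others of their region. Telencephalic neuron markers (7 of the 10 listed were measured) had a mean level of 8.58 to 8.91 in forebrain and 6.22 to 7.40 in hindbrain. Brainstem and midbrain markers (11 of 12) had 5.25 to 6.65 in forebrain and 7.40 to 8.65 in hindbrain, so the means of these 2 lists separated the regions in every mouse. Of the 7 telencephalic markers 6 were called lower and 1 higher in hindbrain, and all 11 brainstem and midbrain markers were called higher. Genes of the diencephalon, which is forebrain by anatomy, were also mostly higher in the tissue labelled hindbrain: 4 of 5 thalamic markers were called higher and 1 lower (median difference 1.55), and 4 of 4 measured hypothalamic markers were called higher (median 0.98). Hindbrain and forebrain are therefore used below as the names of the dissected tissues. The hindbrains of C57BL/6J mice BB685 and BB702 had telencephalic means of 7.25 and 7.40, whereas the other 14 lay between 6.22 and 6.86. Markers of the cerebellum, which had been removed, averaged 9.36 in the hindbrain of BB701 and 9.52, 9.91 and 10.36 in those of DD658, DD676 and DD678, and 6.59 to 8.07 in the others. All 4 of these mice had received clozapine. The whole brain of the NOD/ShiLtJ mouse DD656 had a telencephalic mean of 7.54, against 8.06 to 8.65 in the other whole brains, and a brainstem and midbrain mean of 8.16, against 7.61 or less. Values without these arrays are given beside results that they change. Some further arrays had high means and were left out only together with their mouse. Cerebellar means reached 7.49 in NOD/ShiLtJ forebrain (median 6.47) and 8.27 in C57BL/6J whole brain (median 6.64). Brainstem and midbrain means reached 6.65 in NOD/ShiLtJ forebrain (median 5.56).

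Most Kcn genes differed between hindbrain and forebrain, and most of the larger differences were toward forebrain. At a false discovery rate (FDR) below 0.05, computed by the methods' formula over all clusters, 69 of the 86 members (80.2%) differed, 31 of them higher and 38 lower in hindbrain. The same test called 65.7% of all clusters, 33.1% higher and 32.5% lower. Among clusters with a mean level above 5 the background was higher: 79.1% of them were called, and 67 of the 75 members at that level. The median absolute difference was 0.36 over the members and 0.13 over the 18666 genes with 1 symbol. Differences over 1 in size occurred in 16 members, 13 of them lower in hindbrain. In 26 members, 8 higher and 18 lower, the 16 hindbrain and the 16 forebrain arrays did not overlap, which was so for 9.04% of all clusters, and 43 members moved the same way in all 16 mice. How many of all clusters differed by over 1 in size, or moved the same way in all 16 mice, was not counted. The formula admits 3 calls with an unadjusted p of 0.05 or more (Kcna3, Kcna10 and Kcnc4), and 4 of the 69 called members had a mean level below 5. Centring each array on its median, which shifts the median difference of all clusters from -0.01 to -0.08, gave 27 members higher and 49 lower (82.1% of all clusters were called). Without the hindbrains of BB685 and BB702 71 members were called (66.7% of all clusters), and 67 without the 4 with high cerebellar markers (61.1%).

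**Figure D1:**
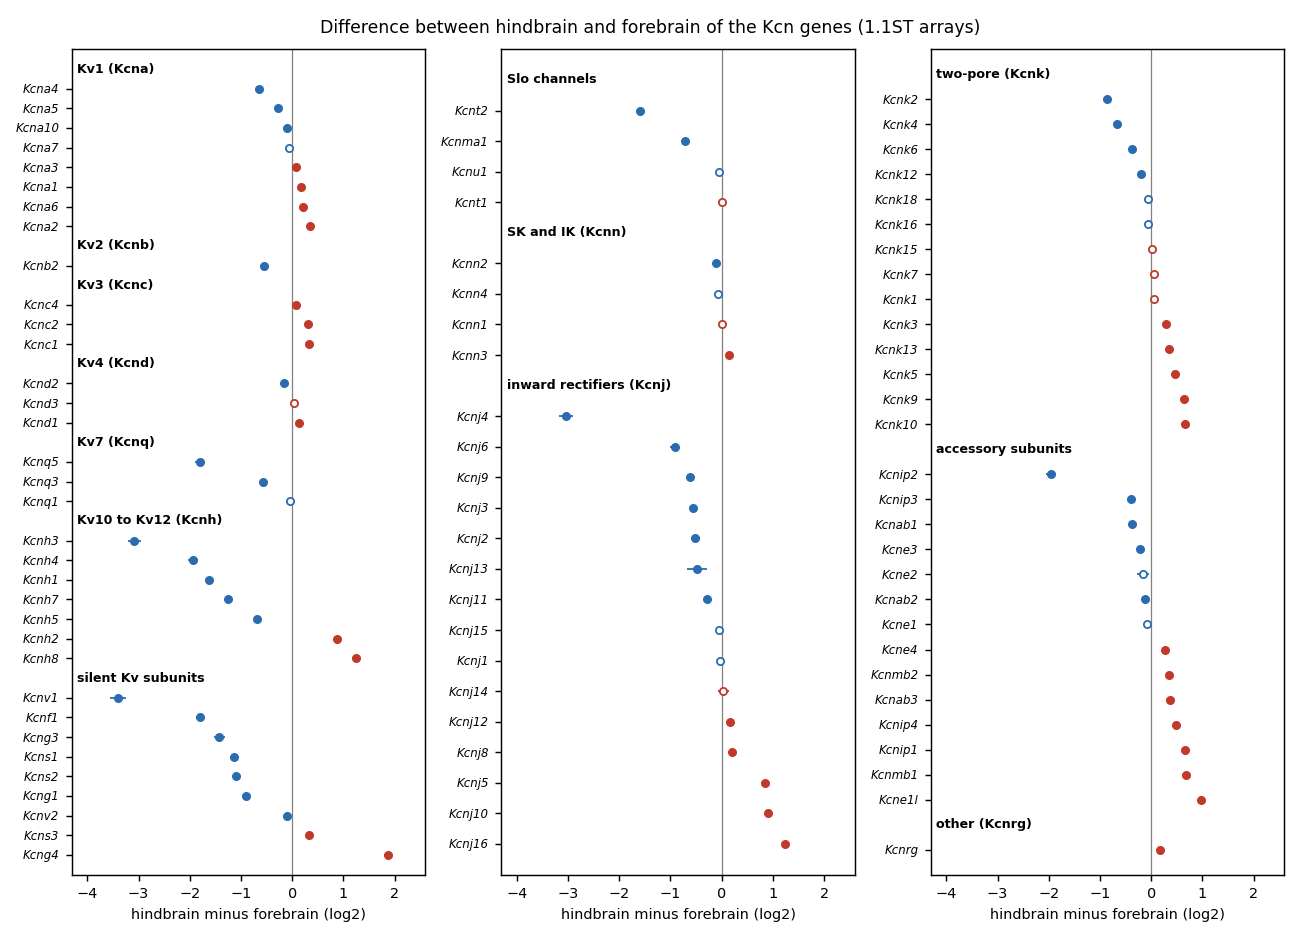
Difference between hindbrain and forebrain on the 1.1ST arrays for each of the 86 members by subfamily; the x axis is the estimate in log2 units over 16 mice with its SE as a bar, red marks higher and blue lower in hindbrain, and filled points passed the FDR of 0.05. The Kcnh genes and the silent subunits spread the widest, from -3.40 for Kcnv1 to 1.88 for Kcng4, whereas the Kcna, Kcnc, Kcnd and Kcnn genes reach no further from 0 than Kcna4 at -0.64.

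Among the Kcnh genes, which encode the EAG, ERG and ELK channels that shape firing near threshold, all 7 were called and no range of hindbrain overlapped that of forebrain. The 5 lower in hindbrain had differences from -3.09 to -0.69, and the median over the 7 was -1.25. Kcnh3 (an ELK channel) lay between 8.98 and 9.49 with a median of 9.33 in forebrain, between 7.60 and 9.19 with a median of 8.89 in whole brain, and between 5.56 and 7.45 with a median of 6.11 in hindbrain. Every hindbrain array was thus below every forebrain array, by -3.09 ± 0.13 (estimate and SE, FDR 8.79e-26), an intensity ratio of 8.49. Its relative Kcnh4 lay between 7.06 and 7.93 in forebrain and between 4.91 and 6.41 in hindbrain (-1.93 ± 0.10, FDR 9.89e-23). The third ELK gene, Kcnh8, ran the other way, at 5.25 to 6.12 in forebrain and 6.64 to 7.37 in hindbrain (1.24 ± 0.08, FDR 1.51e-19). The EAG channel Kcnh1 lay between 10.27 and 10.70 in forebrain and between 8.43 and 9.47 in hindbrain (-1.62 ± 0.08, FDR 4.12e-23), and its paralog Kcnh5 differed by -0.69. The ERG genes were split as well: Kcnh2, the gene of the cardiac repolarizing ERG channel, lay between 7.41 and 7.99 in forebrain and between 8.31 and 8.73 in hindbrain (0.88 ± 0.06, FDR 4.40e-18), and Kcnh7 was lower by -1.25.

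The silent subunits held the member with the largest fall and the member with the largest rise. All 9 were called, 7 lower and 2 higher in hindbrain, with a median of -1.09, and the ranges did not overlap for 6. Kcnv1, which modifies Kcnb channels, lay between 10.03 and 10.74 with a median of 10.35 in forebrain, between 8.27 and 10.41 with a median of 10.02 in whole brain, and between 6.07 and 8.45 with a median of 6.83 in hindbrain (-3.40 ± 0.15, FDR 1.48e-24), an intensity ratio of 10.5. Its highest hindbrain values, 8.45 and 8.20, were in mice BB702 and BB685, the arrays with the highest telencephalic means, and the other 14 lay between 6.07 and 7.41. Leaving these 2 hindbrains out gave -3.57 for Kcnv1, and leaving out the 4 with high cerebellar markers gave -3.22. Kcnf1 lay between 7.91 and 9.08 in forebrain and between 5.81 and 7.85 in hindbrain (-1.81 ± 0.08, FDR 1.63e-24). Kcng3 lay between 7.87 and 8.80 in forebrain and between 6.29 and 7.65 in hindbrain (-1.43 ± 0.11, FDR 9.41e-17). Kcns1, Kcns2 and Kcng1 differed by -1.14, -1.09 and -0.91. The exception was Kcng4, whose promoter is printed above, at 5.32 to 6.21 with a median of 5.69 in forebrain, 5.94 to 7.23 with a median of 6.54 in whole brain and 7.07 to 8.15 with a median of 7.60 in hindbrain (1.88 ± 0.09, FDR 2.05e-23), an intensity ratio of 3.68. Kcns3 was higher by 0.33, and Kcnv2 differed by -0.11.

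**Figure D2:**
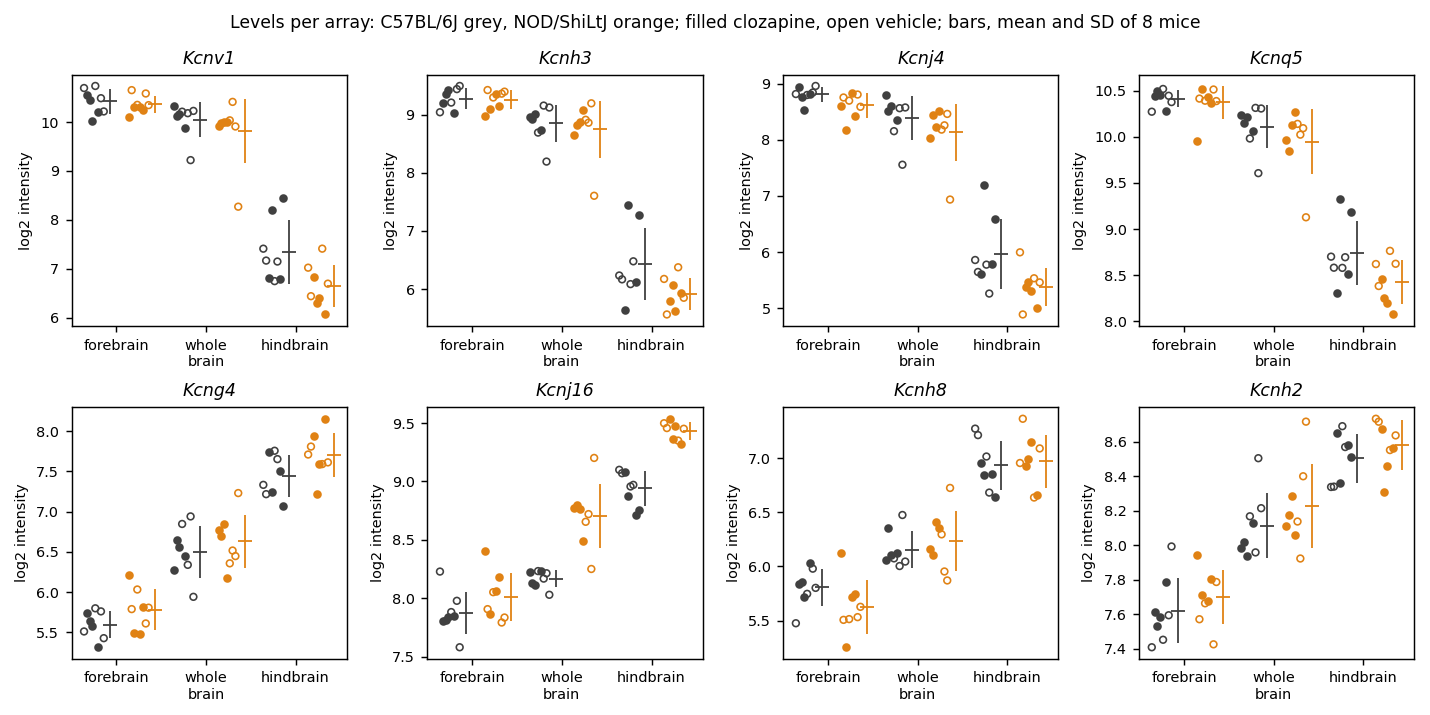
Log2 intensity of 8 members (y axis) on each 1.1ST array by region (x axis), with C57BL/6J grey, NOD/ShiLtJ orange, clozapine filled, vehicle open, and bars for the mean and SD of 8 mice. In Kcnv1, Kcnh3, Kcnj4 and Kcnq5 every forebrain array lies above every hindbrain array, in Kcng4, Kcnj16, Kcnh8 and Kcnh2 the order is turned, and the lowest NOD/ShiLtJ whole brain point of the upper row is mouse DD656 in each panel.

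The other Kv genes differed less, apart from the Kcnq genes, whose channels carry the M current that restrains repetitive firing. Kcnq5 lay between 9.95 and 10.52 in forebrain and between 8.08 and 9.33 in hindbrain (-1.81 ± 0.09, FDR 1.30e-23), Kcnq3 differed by -0.57, and Kcnq1, an epithelial and cardiac subunit, had a difference of -0.04 that did not pass the test. All 3 Kcnc genes, whose fast channels allow high firing rates, were called higher. Kcnc1 lay between 8.40 and 8.96 in forebrain and between 8.72 and 9.48 in hindbrain, ranges that overlap, and was higher in all 16 mice (0.33 ± 0.06, FDR 4.17e-07), whereas Kcnc2 and Kcnc4 differed by 0.31 and 0.07. Of the 8 Kcna genes, 4 were called higher (Kcna1, Kcna2, Kcna3 and Kcna6, by 0.07 to 0.34) and 3 lower. Kcna4, the subunit of a rapidly inactivating current of axons, fell the most of them, from 8.71 to 9.25 in forebrain to 7.91 to 8.87 in hindbrain (-0.64 ± 0.04, FDR 5.12e-18). Kcnb2, a delayed rectifier, was lower by -0.56 without overlap. Of the 3 Kcnd genes, which encode the dendritic A-type channels, Kcnd2 was called lower (-0.17 ± 0.03, FDR 7.50e-06), Kcnd1 was called higher by 0.14, and Kcnd3 had a difference of 0.04 that did not pass.

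Accessory subunits moved in both directions, and members with the same partner differed from each other. Kcnip1 to Kcnip4 encode the KChIP proteins, calcium sensors that bind Kcnd channels. Kcnip2 lay between 9.24 and 9.87 in forebrain and between 6.80 and 8.71 in hindbrain (-1.95 ± 0.10, FDR 1.58e-22) and Kcnip3 was lower by -0.39, whereas Kcnip1 lay between 8.78 and 9.25 in forebrain and between 9.47 and 9.88 in hindbrain (0.67 ± 0.04, FDR 2.16e-18) and Kcnip4 was higher by 0.49. Kcnmb1, a beta subunit of BK channels better known from smooth muscle, was higher in all 16 mice (0.69 ± 0.08, FDR 5.74e-11). Kcne1l, the array's name for the KCNE family gene on the X chromosome, lay between 5.96 and 6.54 in forebrain and between 6.87 and 7.43 in hindbrain (0.96 ± 0.05, FDR 1.33e-21). Kcnab1 and Kcnab2, cytoplasmic beta subunits of Kcna channels, were lower by -0.37 and -0.13, and Kcnab3 was higher by 0.36. In all, 12 of the 14 accessory genes were called, 7 higher and 5 lower, and 11 were called in the same direction on the 1.0ST arrays. The exception was Kcne4, whose mean level was below 5 and whose difference was 0.27 with the peg format but 0.01 with the cartridge format.

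Among the Slo and Kcnn channels, 2 of 4 Slo genes and 2 of 4 Kcnn genes were called. Kcnt2, a sodium-activated channel, lay between 9.01 and 9.61 in forebrain and between 7.34 and 8.23 in hindbrain (-1.60 ± 0.07, FDR 1.40e-24). Kcnma1, the pore of the BK channel, lay between 10.43 and 10.90 in forebrain and between 9.68 and 10.25 in hindbrain, a difference of -0.71 without overlap, whereas its beta subunit Kcnmb1 was higher. Kcnt1, the paralog of Kcnt2, had a difference of 0.01 that did not pass. The Kcnn genes, which encode the SK channels of the afterhyperpolarization, differed little between the regions. Kcnn3 was called higher (0.14 ± 0.07, FDR 0.0175) and Kcnn2 lower by -0.11, with overlapping ranges. In NOD/ShiLtJ mice alone the Kcnn3 difference was -0.071, so its direction did not hold in both strains. Kcnn1 and Kcnn4 did not pass.

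The inward rectifiers differed in both directions, 5 higher and 7 lower of 15. Kcnj4, a strong rectifier of neurons, lay between 8.18 and 8.96 with a median of 8.78 in forebrain, between 6.93 and 8.79 with a median of 8.40 in whole brain and between 4.89 and 7.19 with a median of 5.57 in hindbrain (-3.04 ± 0.13, FDR 5.20e-25), an intensity ratio of 8.21. Kcnj3, Kcnj6 and Kcnj9, the neuronal subunits of the channels opened by G proteins, were all lower, by -0.55, -0.92 and -0.62, whereas Kcnj5, the subunit of the atrial channel, was higher in all 16 mice (0.84 ± 0.08, FDR 4.45e-14). Kcnj10 and Kcnj16, which form the channel through which astrocytes and oligodendrocytes take up potassium, were both higher in all 16 mice. Kcnj16 lay between 7.58 and 8.40 in forebrain and between 8.71 and 9.54 in hindbrain (1.24 ± 0.06, FDR 1.45e-23), and Kcnj10 between 8.93 and 10.20 in forebrain and between 10.03 and 11.03 in hindbrain (0.90 ± 0.06, FDR 3.72e-19). The markers of these glia moved with them: all 6 measured oligodendrocyte markers were called higher in hindbrain, with mean levels of 9.61 to 10.20 in forebrain and 10.59 to 10.95 in hindbrain, and of 7 astrocyte markers 5 were higher and 2 lower, with mean levels of 10.09 to 10.43 and 10.43 to 10.75. Their part in the differences of Kcnj10 and Kcnj16 was not tested.

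Kcnj13, known from the choroid plexus, was called lower in hindbrain (-0.48 ± 0.19, FDR 0.00883) with 11 of 16 mice in that direction. Its hindbrain levels ran from 7.80 to 10.31, with 9.64 or more in mice BB686, DD658, DD676 and DD678 and 8.84 or less in the other 12. The mean of the 5 measured choroid plexus markers ran from 6.30 to 9.03 over the same arrays, and Ttr, the transthyretin gene of that tissue, from 6.33 to 12.72. The part of these markers in the Kcnj13 values was not tested.

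The Kcnk genes gave 5 calls higher and 4 lower of 14, and genes of the mechanically gated TREK group lay on both sides. Kcnk2 lay between 8.18 and 8.66 in forebrain and between 7.24 and 8.07 in hindbrain (-0.87 ± 0.06, FDR 7.12e-18), and Kcnk4 was lower by -0.67. Kcnk10, the third gene of the group, lay between 7.12 and 7.64 in forebrain and between 7.60 and 9.09 in hindbrain (0.66 ± 0.07, FDR 3.52e-11), and its difference without the 4 hindbrains with high cerebellar markers was 0.47. The acid-sensitive TASK genes Kcnk9, Kcnk5 and Kcnk3 were higher by 0.63, 0.46 and 0.29, and the mean level of Kcnk5 was only 4.58. Kcnk13 was higher by 0.35, Kcnk6 and Kcnk12 were lower by -0.37 and -0.19, and the other 5 (Kcnk1, Kcnk7, Kcnk15, Kcnk16 and Kcnk18) did not pass.

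**Figure D3:**
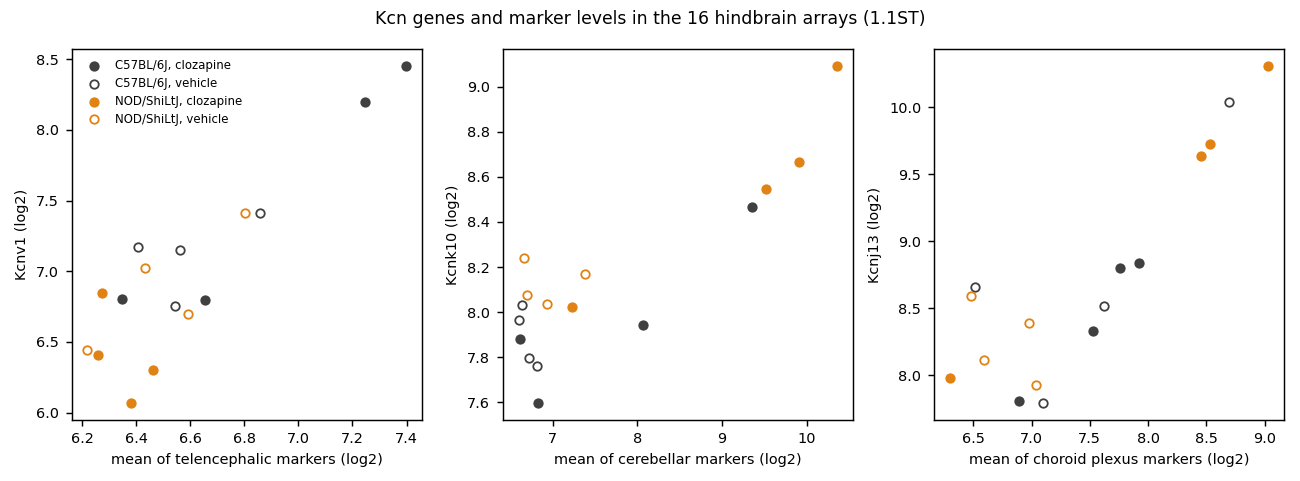
Log2 intensity of Kcnv1, Kcnk10 and Kcnj13 (y axes) against the mean log2 level of telencephalic, cerebellar and choroid plexus markers (x axes) in the 16 hindbrain arrays of the 1.1ST format, 1 point per mouse. The 2 highest Kcnv1 values (8.20 and 8.45) belong to the arrays with the highest telencephalic means (7.25 and 7.40), the 4 highest Kcnk10 values (8.47 to 9.09) to those with the highest cerebellar means (9.36 to 10.36), and the 4 highest Kcnj13 values (9.64 to 10.31) to those with the highest choroid plexus means.

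On the 1.0ST arrays 79 of the 86 members were called between hindbrain and forebrain (77.1% of all clusters), and 68 of the 69 members called on the 1.1ST arrays were called there in the same direction. Differences were smaller on the 1.0ST format for the members that differed most, at -2.99 for Kcnv1, -2.02 for Kcnh3, -2.13 for Kcnj4, -0.99 for Kcnh4, 1.34 for Kcng4 and 0.70 for Kcnh8. Median intensities were also higher on that format, 8.14 to 8.23 per array against 6.28 to 6.61. Both formats measured the same RNA samples, so they are no independent replication.

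**Figure D4:**
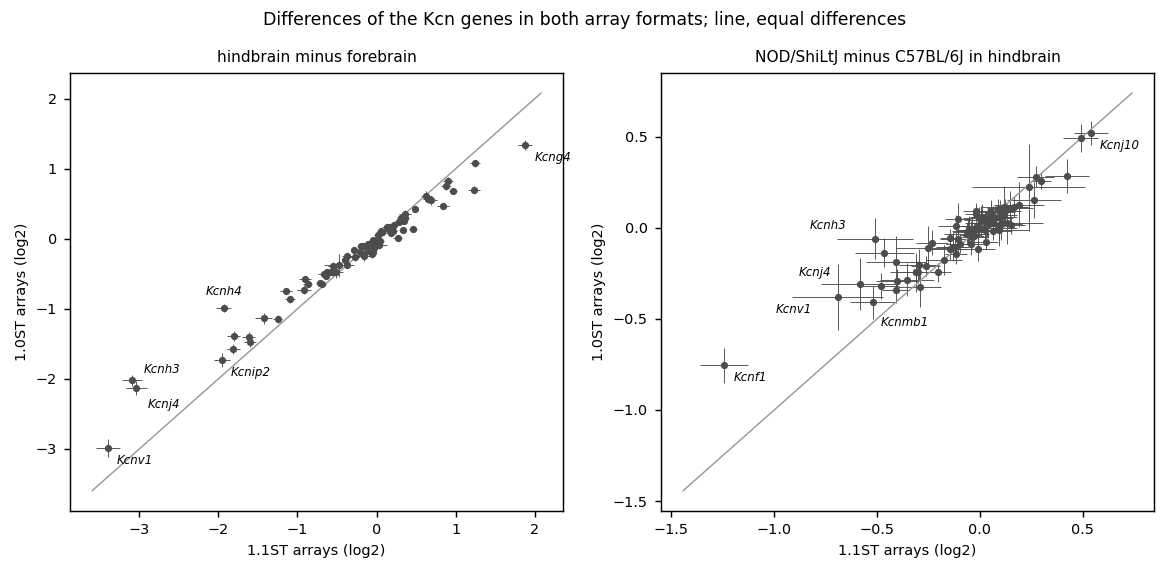
Differences of the 86 members on the 1.1ST arrays (x axis) and the 1.0ST arrays (y axis) in log2 units with SE bars, for hindbrain minus forebrain (left) and NOD/ShiLtJ minus C57BL/6J in hindbrain (right); the line marks equal differences. Most of the largest differences lie nearer to 0 on the 1.0ST arrays, such as Kcnh3 on the left (-3.09 and -2.02) and Kcnf1 on the right (-1.24 and -0.75).

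Whole brain, which contains both regions, lay between them for nearly all members that differed. Its mean was between the forebrain and hindbrain means in 65 of the 69 members called, and in all 16 with a difference over 1. Against forebrain, 40 members were called, 16 higher and 24 lower in whole brain, and each of the 40 was also called in the same direction in hindbrain. The same test called 20.0% of all clusters, 12.3% higher and 7.65% lower, and both contrasts share the forebrain arrays. How many of all clusters lay between the regions, or were called in both contrasts, was not counted. The paper reports, from its own model, that most transcripts differing between whole brain and forebrain also differed between hindbrain and forebrain. The members furthest up were Kcng4 (0.88 ± 0.09, FDR 4.13e-10, higher in 16 of 16 mice), Kcnh2 (0.51 ± 0.06, FDR 1.07e-08, 16 of 16) and Kcnj16 (0.50 ± 0.06, FDR 1.46e-08, 15 of 16). Furthest down were Kcnh4 (-0.48 ± 0.10, FDR 0.000199, lower in 12 of 16), Kcnh3 (-0.47 ± 0.13, FDR 0.00412, 15 of 16) and Kcnv1 (-0.46 ± 0.15, FDR 0.0175, 16 of 16). All 7 Kcnh genes were called here too, and none of the Kcnd or Kcnn genes was. An unadjusted p under 0.05 (limma) was found for 44 of the 86 members and 7917 of the 28310 clusters. On the 1.0ST arrays 37 of the 40 were called in the same direction (41 members and 16.5% of all clusters were called there). Without the whole brain of mouse DD656, 36 members were called (16.2% of all clusters), and centring the arrays gave 14 higher and 34 lower (29.6%). The split also moved with surrogate variables (18 higher and 16 lower, 14.4% of all clusters), in C57BL/6J alone (11 and 2, 6.47%) and in NOD/ShiLtJ alone (10 and 10, 7.17%).

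Genes outside the Kcn symbols whose products assemble with these channels, anchor them or act beside them were counted as a further list of 37, of which 36 were measured. Between hindbrain and forebrain 15 were called higher and 16 lower, beside 33.1% and 32.5% of all clusters, with a median difference of -0.02 against -0.01 over all clusters. Akap5, an anchoring protein of Kcnq channels, Kctd16, an auxiliary subunit of the GABA-B receptors that open Kcnj3, Kcnj6 and Kcnj9 channels, and Dlg2, a scaffold of Kcna channels, fell the most, by -2.10, -1.10 and -0.71. Hcn4 and Hcn2, which carry the depolarizing h current, and Lgi3, a secreted ligand of the Kcna complex, rose by 0.95, 0.66 and 0.71. In NOD/ShiLtJ against C57BL/6J, 2 of the 36 were higher and 1 lower in forebrain, 3 higher and 4 lower in hindbrain, and 0 higher and 2 lower in whole brain, where 11.7%, 17.2% and 10.7% of all clusters were called.

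Between the strains, Kcnj10 and Kcnf1 differed in each region, and the count of members called was higher in hindbrain than in forebrain or whole brain, with most calls toward lower levels in NOD/ShiLtJ. In forebrain 5 members were called (1 higher, 4 lower), beside 11.7% of all clusters (5.11% higher, 6.59% lower). In hindbrain 24 members were called, 27.9% of the family, beside 17.2% of all clusters, with 5 members higher and 19 lower against 9.33% and 7.85% of all clusters. The share and the split changed when arrays that stood apart were left out, which also leaves fewer arrays in the fit. Without the hindbrains of BB685 and BB702 13 members were called (4 higher, 9 lower), 15.1% of the family beside 13.6% of all clusters. Without the 4 with high cerebellar markers 15 were called (6 higher, 9 lower), 17.4% beside 11.5%. The cause of these changes was not tested. In vehicle mice alone 6 were called, 6.98% beside 6.82%. Among clusters with a mean level above 5, 26 of the 75 members at that level were called, beside 26.6% of those clusters. In whole brain 7 were called (2 higher, 5 lower), beside 10.7% of all clusters (5.13% higher, 5.59% lower). The median absolute strain difference of the members was 0.08 in forebrain, 0.11 in hindbrain and 0.07 in whole brain, against 0.07, 0.07 and 0.06 over all genes. Strain cannot be told apart from litter, since every litter was of 1 strain.

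**Figure D5:**
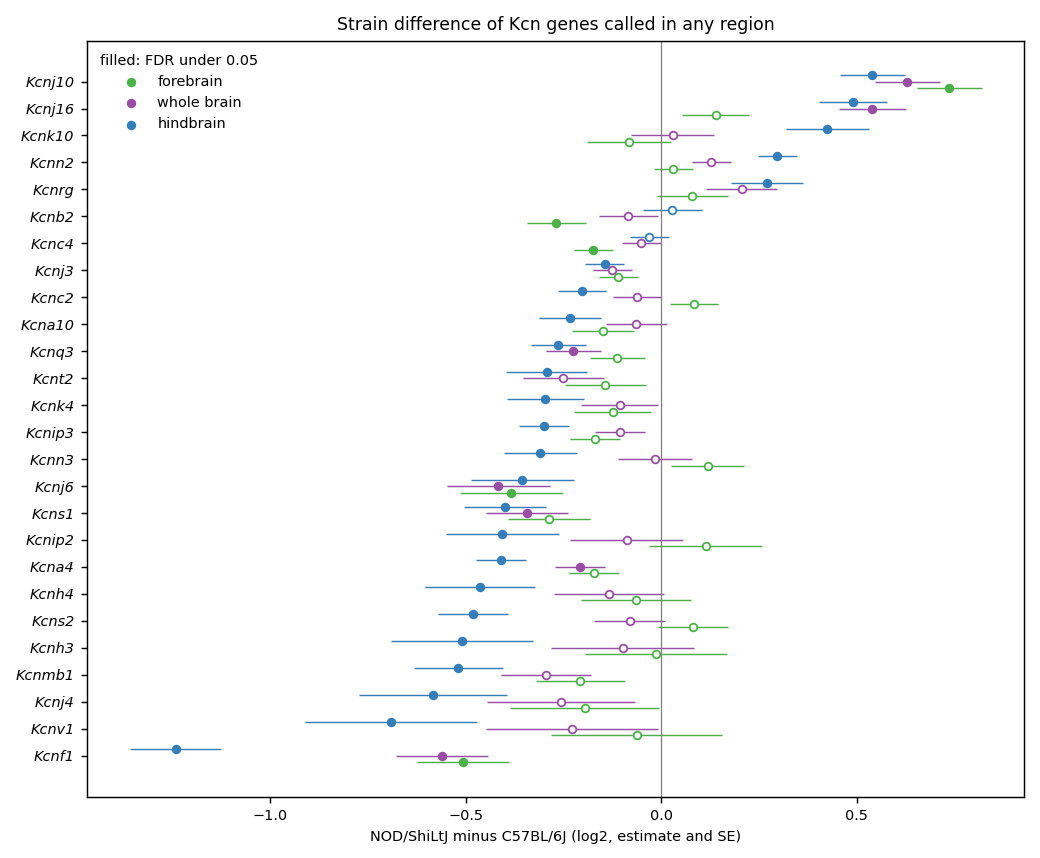
Difference between NOD/ShiLtJ and C57BL/6J on the 1.1ST arrays (x axis, log2 estimate with SE, 8 mice per strain) in forebrain, whole brain and hindbrain for the 26 members called in any region, filled where called. Kcnj10 lies above 0 in all 3 regions (0.54 to 0.74) and Kcnf1 below 0 in all 3 (-1.24 to -0.51), and most other filled points are hindbrain points below 0.

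Kcnj10, the pore subunit of glial potassium uptake whose promoter is printed above, was higher in NOD/ShiLtJ in all 3 regions without overlap of the strains. In forebrain it lay between 8.93 and 9.54 with a median of 9.43 in C57BL/6J and between 9.95 and 10.20 with a median of 10.08 in NOD/ShiLtJ (0.74 ± 0.08, FDR 1.16e-09), an intensity ratio of 1.66. The hindbrain ranges were 10.03 to 10.56 and 10.69 to 11.03 (0.54 ± 0.08, FDR 1.41e-06), and the whole brain ranges 9.65 to 10.21 and 10.24 to 11.00 (0.63 ± 0.08, FDR 6.66e-08). Its highest whole brain value was that of mouse DD656, without which the difference was 0.56. Kcnj16, its partner subunit, lay between 8.71 and 9.10 in C57BL/6J and between 9.32 and 9.54 in NOD/ShiLtJ in hindbrain (0.49 ± 0.09, FDR 1.54e-05), and between 8.03 and 8.23 against 8.25 and 9.20 in whole brain (0.54 ± 0.09, FDR 3.65e-06). In forebrain its ranges overlapped, at 7.58 to 8.23 and 7.79 to 8.40, and the difference of 0.14 did not pass. Of the 7 astrocyte markers, 3 were higher and 1 lower in NOD/ShiLtJ forebrain, 4 higher and 2 lower in hindbrain, and 2 higher and 1 lower in whole brain. The mean level of these markers was 10.09 to 10.26 in C57BL/6J and 10.17 to 10.43 in NOD/ShiLtJ forebrain, and Gfap, the astrocyte filament gene, was higher by 0.53 there. Of the 6 oligodendrocyte markers 2 were higher in NOD/ShiLtJ forebrain (median difference 0.15), 1 in hindbrain and 0 in whole brain, and 0 were lower. The part of these glial markers in the Kcnj10 and Kcnj16 values was not tested.

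Kcnf1, a silent subunit, was lower in NOD/ShiLtJ in all 3 regions. In forebrain it lay between 8.68 and 9.08 in C57BL/6J and between 7.91 and 8.59 in NOD/ShiLtJ (-0.51 ± 0.12, FDR 0.00118), and in hindbrain between 6.995 and 7.85 with a median of 7.50 and between 5.81 and 6.47 with a median of 6.24 (-1.24 ± 0.12, FDR 3.83e-12), an intensity ratio of 2.37. In both of these regions no NOD/ShiLtJ array reached the lowest C57BL/6J array. In whole brain the ranges of 8.21 to 8.88 and 7.41 to 8.58 overlapped (-0.56 ± 0.12, FDR 0.000332). Leaving out the hindbrains of BB685 and BB702, the 4 with high cerebellar markers, or the whole brain of DD656 gave differences of -1.14 and -1.33 in hindbrain and -0.46 in whole brain. On the 1.0ST arrays Kcnf1 differed by -0.29 in forebrain, -0.75 in hindbrain and -0.30 in whole brain, and was called in each.

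The remaining forebrain calls were Kcnj6 (-0.38 ± 0.13, FDR 0.0376), Kcnb2 (-0.27 ± 0.08, FDR 0.00864) and Kcnc4 (-0.17 ± 0.05, FDR 0.00978), each lower in NOD/ShiLtJ with overlapping ranges. The Kcnj6 call in forebrain was lost when any 1 of 10 of the 16 mice was left out, with FDR values up to 0.119. Kcnj6, the principal neuronal subunit of the channels opened by G proteins, lay between 7.49 and 8.38 in C57BL/6J and between 7.11 and 7.79 in NOD/ShiLtJ forebrain. It was also lower in hindbrain (-0.36) and in whole brain (-0.42 ± 0.13, FDR 0.0245), though its whole brain FDR without mouse DD656 was 0.0504. Kcns1 was lower in whole brain (-0.34 ± 0.10, FDR 0.0189), where its range was 6.51 to 7.27 in C57BL/6J and 5.82 to 6.62 in NOD/ShiLtJ, and without mouse DD656 its difference was -0.25 with an FDR of 0.0832. Of the 7 whole brain calls 3 remained without that array (Kcnf1, Kcnj10 and Kcnj16). All 5 forebrain calls and all 7 whole brain calls were also called in the same direction on the 1.0ST arrays, where 7 and 8 members and 10.1% and 9.35% of all clusters were called. Ranges of the strains did not overlap for 2 members in forebrain (Kcnf1 and Kcnj10; 3.49% of all clusters) and 2 in whole brain (Kcnj10 and Kcnj16; 3.29% of all clusters).

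Of the 24 members called between the strains in hindbrain, 16 were among the members lower in hindbrain than in forebrain and lower in NOD/ShiLtJ. Both contrasts share the hindbrain arrays, and how many of all clusters were called lower in both was not counted. The members lower in both included Kcnv1 (-0.69 ± 0.22, FDR 0.0158), Kcnj4 (-0.58 ± 0.19, FDR 0.0185), Kcnh3 (-0.51), Kcns2 (-0.48), Kcnh4 (-0.46), Kcna4 (-0.41) and Kcnip2 (-0.41). Kcnv1 lay between 6.75 and 8.45 in C57BL/6J and between 6.07 and 7.41 in NOD/ShiLtJ hindbrain, and Kcnj4 between 5.26 and 7.19 and between 4.89 and 5.99. The highest C57BL/6J values were those of BB685 and BB702, the hindbrains with the highest telencephalic markers. Without these 2 arrays 13 of the 24 calls remained, and Kcnv1 (-0.35, FDR 0.221), Kcnj4 (-0.29, FDR 0.233), Kcnh3 (-0.19), Kcnh4 (-0.33) and Kcnip2 (-0.22) were no longer called, whereas Kcna4 (-0.42), Kcns2 (-0.45) and Kcnip3 (-0.34) still were. Kcna4 and Kcnip3 were also among the 5 members whose strain ranges did not overlap in hindbrain, with Kcnf1, Kcnj10 and Kcnj16 (3.88% of all clusters). Kcna4 lay between 8.46 and 8.87 in C57BL/6J and between 7.91 and 8.42 in NOD/ShiLtJ, and Kcnip3 between 10.58 and 10.84 and between 10.24 and 10.57. Over the 24 calls, 16 were called in the same direction on the 1.0ST arrays, where 18 members and 13.7% of all clusters were called. Kcnv1 (-0.38), Kcnj4 (-0.31) and Kcnh3 (-0.06) were not among the 16.

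Besides Kcnj10 and Kcnj16, the members higher in NOD/ShiLtJ hindbrain were Kcnk10, Kcnn2 and Kcnrg. Kcnk10 lay between 7.60 and 8.47 in C57BL/6J and between 8.02 and 9.09 in NOD/ShiLtJ (0.42 ± 0.11, FDR 0.00223). Its 4 highest values, 8.47 in BB701 and 8.54, 8.67 and 9.09 in DD658, DD676 and DD678, were in the 4 hindbrains with high cerebellar markers. Without those 4 arrays the difference was 0.22 and still called (FDR 0.0256), and 13 of the 24 hindbrain calls remained. Kcnrg, at 0.27 with all arrays, had 0.11 without them and was no longer called, and neither were Kcnv1 (-0.51, FDR 0.179) and Kcnj4 (-0.52, FDR 0.120). Kcnn2, an SK channel, kept its difference (0.30 with all arrays and 0.35 without the 4).

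The strain difference itself changed between regions for 3 members, where 1.11% of all clusters showed such an interaction. For Kcnf1, hindbrain was below forebrain by -2.17 in NOD/ShiLtJ and by -1.44 in C57BL/6J (interaction -0.74 ± 0.16, FDR 0.00768), and for Kcns2, a silent subunit, by -1.37 and -0.81 (-0.56 ± 0.13, FDR 0.00802). For Kcnn2 the differences were 0.02 and -0.25 (0.27 ± 0.07, FDR 0.0358). The Kcnn2 call was close to the threshold: without the hindbrains of BB685 and BB702 its FDR was 0.0506, and it was lost when any 1 of 11 of the 16 mice was left out, with FDR values from 0.0175 to 0.101 over the 16. Kcns2 lay between 7.36 and 7.72 in C57BL/6J and between 7.26 and 7.84 in NOD/ShiLtJ forebrain, with much overlap, and between 6.36 and 6.91 and between 5.97 and 6.51 in hindbrain. Kcnn2 lay between 8.80 and 9.03 and between 8.77 and 9.09 in forebrain, and between 8.47 and 8.79 and between 8.76 and 9.05 in hindbrain. On the 1.0ST arrays 3 members and 0.767% of all clusters had an interaction, Kcns2 (-0.51) and Kcnn2 (0.23) among them and Kcnf1 (-0.47, FDR 0.0951) not. All 5 thalamic markers had an interaction in the same contrast, with NOD/ShiLtJ higher in forebrain for 3 of them and lower in hindbrain for 4. Their mean level was 7.49 to 8.13 in C57BL/6J and 7.76 to 8.62 in NOD/ShiLtJ forebrain, and 9.18 to 10.04 and 8.86 to 9.27 in hindbrain. The part of these markers in the 3 Kcn interactions was not tested.

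Clozapine against vehicle was tested on 1 mean per mouse over its 3 regions, since the dose was given to the mouse. Treatment was partly aligned with litter size in NOD/ShiLtJ, where 3 of 4 clozapine mice came from litters of 11 and 3 of 4 vehicle mice from litters of 9, and 0 members were called with litter size in the model too. No member passed the FDR of 0.05 (limma), and 0.0424% of all clusters were called. An unadjusted p under 0.05 (limma) was found for 15 of the 86 members and 3295 of the 28310 clusters. On the 1.0ST arrays 0 members were called as well. The smallest unadjusted p was that of Kcna5, a delayed rectifier, at 5.24 to 5.66 in clozapine and 5.05 to 5.24 in vehicle C57BL/6J mice, and 5.19 to 5.32 and 4.95 to 5.21 in NOD/ShiLtJ mice (0.20 ± 0.06, FDR 0.124). Its treatment ranges met at 5.24 in C57BL/6J and overlapped in NOD/ShiLtJ. Next came Kcnip3 (0.12 ± 0.03, FDR 0.144), Kcna6 (-0.12 ± 0.04, FDR 0.155), Kcna3 (-0.11 ± 0.03, FDR 0.171) and Kcnk6 (0.17 ± 0.06, FDR 0.217). Cerebellar markers were high in the hindbrains of 4 clozapine mice and of 0 vehicle mice: Gabra6, a granule cell gene, was above 9 in those 4. Their part in the treatment differences was not tested.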

How the data were processed

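Values were deposited by the authors as log2 intensities, 1 per transcript cluster and array, made by robust multiarray averaging in Affymetrix Expression Console 1.1 (per the submitters' processing notes and methods) separately for the 1.1ST and 1.0ST arrays of 48 samples. Both tables held the same 28310 clusters. Of these, 21207 had 1 gene symbol in the platform annotation, and 8 Kcn clusters with several symbols or with names that differed between the platforms were left out. Probes follow the reference genome, and sequence variants of NOD/ShiLtJ under a probe, which could shift a strain difference, were not examined. The number of arrays limits the precision.

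The 1.1ST arrays were fitted with limma 3.58.1 and statmod 1.5.0 (R 4.3.3), with 6 means of strain and region, treatment, and the mouse as a random block (consensus correlation 0.0388), because the labels give the 3 regions of a mouse the same identifier. Residuals of forebrain and hindbrain of 1 mouse correlated at a mean of 0.07, and those of different mice at -0.00. Clozapine was tested on 1 mean per mouse. The FDR took the share of unchanged clusters as 2 times the share of p above 0.5, and calls were made at 0.05 over all 28310 clusters. The sample labels name no batch, which the methods' model holds beside surrogate variables, so the fit had neither, and surrogate variables were tried as an alternative.

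Members and lists were chosen with earlier results of these data known. Values with their tests are given for the 10 members furthest up and the 10 furthest down in hindbrain against forebrain among those that moved alike in all 16 mice, the largest other call of each subfamily with 3 or more members, up to 5 (forebrain) or 3 (hindbrain, whole brain) strain calls in each direction, up to 3 interactions, the 5 smallest clozapine p and up to 3 whole brain calls in each direction, and other members with their difference. Alternatives were the other format, the block, covariates, adjustment, centring, filters, single regions, strains or vehicle mice and leaving out each mouse. Leaving out single arrays that stood apart was added after seeing the data.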

Additional observations from a re-analysis of the deposited data

Results flagged for a closer look

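A value was listed here when the gap between the highest or lowest of 8 mice and its neighbour exceeded Dixon's critical share of the group's range, over 216 groups of the 36 named members by strain and region on the 1.1ST arrays. Chance alone would list about 1 in 20 groups (5%), and 32 values were listed.

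Of the 32, 13 came from 1 array, the whole brain of the NOD/ShiLtJ vehicle mouse DD656, whose telencephalic marker mean (7.54) was below and whose hindbrain marker mean (8.16) above those of the other whole brains. It had the lowest value of its group for Kcng3 (7.21), Kcnh1 (9.49), Kcnh3 (7.60), Kcnh4 (6.10), Kcnip2 (8.21), Kcnj4 (6.93), Kcnk2 (7.62), Kcnq5 (9.13), Kcns1 (5.82), Kcns2 (6.84), Kcnt2 (8.11) and Kcnv1 (8.27), all members lower in hindbrain, and the highest for Kcnj10 (11.00), which was higher in hindbrain. The whole brain of the C57BL/6J mouse BB707 was lowest for Kcnf1 (8.21), Kcnq5 (9.61), Kcnt2 (8.70) and Kcnv1 (9.22) and highest for Kcnc4 (8.87).

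In forebrain, mouse BB685 was the lowest of the C57BL/6J group for Kcna4 (8.90), Kcna6 (8.58) and Kcnj4 (8.52), and mouse BB703 was the highest for Kcnmb1 (5.60) and the lowest for Kcns1 (6.62). Among NOD/ShiLtJ forebrains, DD678 was lowest for Kcnh1 (10.27), Kcnq5 (9.95), Kcns1 (6.34) and Kcnt2 (9.07), and DD676 for Kcna6 (8.49) and Kcnf1 (7.91). In hindbrain, BB685 was highest for Kcna5 (5.83) and Kcnk2 (8.07) and BB702 for Kcna3 (8.69), the mice whose hindbrains had the highest telencephalic marker means (7.25 and 7.40).

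For 3 members the difference between hindbrain and forebrain itself differed between the strains by the test of the interaction, with NOD/ShiLtJ minus C57BL/6J at -0.74 for Kcnf1, -0.56 for Kcns2 and 0.27 for Kcnn2.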

How the results depend on the processing

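Counts of Kcn members called moved by over 1.5 times as follows, and the cause was not tested. Between whole brain and forebrain (40) they were 13 in C57BL/6J alone (6.47% of all clusters, against 20.0% with all mice) and 20 in NOD/ShiLtJ alone (7.17%), with fewer mice in each fit. The strain count in forebrain (5) was 13 with surrogate variables (17.7% of all clusters, against 11.7%), 12 with residual principal components (19.8%) and 8 among clusters with a mean above 5 (16.9%). In hindbrain (24) it was 6 in vehicle mice alone (6.82% of all clusters, against 17.2%), 13 without the hindbrains of BB685 and BB702 (13.6%) and 15 without those of BB701, DD658, DD676 and DD678 (11.5%). In whole brain (7) it was 15 with surrogate variables (5086 of 28310 clusters, against 3034), 16 with residual components (17.9% of all clusters, against 10.7%), 2 in vehicle mice alone (5.40%) and 4 without DD656 (9.64%). The interaction count (3) was 7, 12 and 0 with surrogate variables (2.29% of all clusters, against 1.11%), residual components (4.21%) and vehicle mice alone (0.230%). The clozapine count (0, beside 0.0424% of all clusters) was 1 in NOD/ShiLtJ alone (1.14% of all clusters). It was 2 over 48 arrays (2.23%) and 2 with residual components (2.55%). Leaving out each mouse gave 67 to 73 calls between hindbrain and forebrain, 34 to 40 between whole brain and forebrain, and for strain 4 to 6 in forebrain, 14 (without BB702) to 26 in hindbrain and 4 (without BB702 or DD656) to 9 in whole brain. The interaction gave 2 to 5 (5 without BB701, and Kcnn2 was lost without any 1 of 11 mice) and clozapine 0 to 1 (1 without BB702). Shares of all clusters called without each mouse are not given here, so these ranges have no background beside them.

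With no replicate block the counts were 69, 37, 5, 24, 7 and 3 in the same order. The shares of all clusters called were 64.7%, 18.7%, 11.8%, 17.2%, 10.7% and 0.961%. With the mouse as a fixed replicate block 70 members were called for hindbrain (65.6% of all clusters) and 39 for whole brain against forebrain (20.0%). The interaction gave 3 there (1.13%). Kcnn3, higher in hindbrain by 0.14, was at -0.071 in NOD/ShiLtJ alone. Over 1772 alternative values of 55 results of single members, 1702 kept their direction and side of the threshold, 65 lost the call, 4 gained one and 1 (Kcnn3) changed direction. The 55 were chosen by size or small p, and the fits share most arrays, so this tally is no independent check. In vehicle mice alone, strain calls kept and lost were 3 and 2 in forebrain, 2 and 4 in hindbrain and 2 and 3 in whole brain. For the interaction they were 0 and 3. Calls were lost on the 1.0ST arrays for Kcnv1 and Kcnj4 (strain, hindbrain) and Kcnf1 (interaction). Centring the arrays moved all clusters called between whole brain and forebrain from 3493 higher and 2167 lower to 2484 and 5890, and those between hindbrain and forebrain from 9382 and 9208 to 7505 and 15742. Testing all clusters beyond those kept by the methods was not run, since the tables held no others. Members with a mean level below 5 have little signal over background, which limits what their differences show.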
